A study of Homo sapiens with 4 samples.

Results

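The BMP and TGF-beta genes examined here are 38 genes for ligands, receptors, SMAD proteins and antagonists of the TGF-beta superfamily, out of 19821 protein-coding genes placed on chromosomes 1 to 22 and X. They comprised 22 ligand genes, 8 receptor genes, 3 SMAD genes and 5 antagonist genes. Each was taken with all H2AK119ub peaks that lay within 10 kb of either end of the gene as RefSeq annotates it in GRCh38.p14, the build that shares its coordinates with hg38. This gave 67 of 34390 peaks in YTHDF1 knockdown cells and 64 of 32791 peaks in wild-type cells, and no windows of different members overlapped.

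The cells were H1, an established line of human embryonic stem cells, grown in mTeSR1 medium. The knockdown cells had received a short hairpin RNA that targets YTHDF1, a cytoplasmic reader of m6A in messenger RNA, and the wild-type cells are labelled untreated. H2AK119ub is histone H2A carrying a single ubiquitin on a lysine of its C-terminal tail, measured by chromatin immunoprecipitation and sequencing (ChIP-seq). Each group had 1 H2AK119ub library, so no difference below has a replicate check and no test was run. The labels give neither the number of hairpins nor of clones, and a peak list cannot show whether YTHDF1 RNA was lost or which cell types were present. The files hold no read counts, so the depth is unknown, and a region called in 1 library alone may have fallen slightly short of a call in the other. Over the whole genome, peaks covered 168 Mb in the knockdown list and 195 Mb in the wild-type list.

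Ligands of this superfamily bind pairs of type I and type II serine/threonine kinase receptors, which phosphorylate SMAD proteins that then enter the nucleus and regulate genes. BMP ligands act mainly through SMAD1, SMAD5 and SMAD9, whereas TGF-beta, activin and NODAL act through SMAD2 and SMAD3. In human embryonic stem cells activin and NODAL signalling helps to maintain pluripotency, and added BMP drives differentiation. H2AK119ub is placed by Polycomb repressive complex 1 (PRC1), which is known to occupy CpG-rich promoters of developmental regulators in these cells.

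The promoters below are shown because the presence of the mark at these genes can be set against their CpG content. Each is the 250 bases upstream of the start that RefSeq lists for the gene, read 5′ to 3′ on the gene's strand in GRCh38.p14, with CpG dinucleotides in capitals. SMAD7 (chr18:48942808-48943057, minus strand) and TGFB1 (chr19:41353923-41354172, minus strand) had the longest stretches in peaks among the members with a listed promoter. BMP5 (chr6:55875591-55875840, minus strand) and BMP10 (chr2:68871398-68871647, minus strand) had none in either list. GDF11 (chr12:55742872-55743121, plus strand) and BMP8A (chr1:39491386-39491635, plus strand) had the largest differences among the members that passed the rule of size given below.
SMAD7: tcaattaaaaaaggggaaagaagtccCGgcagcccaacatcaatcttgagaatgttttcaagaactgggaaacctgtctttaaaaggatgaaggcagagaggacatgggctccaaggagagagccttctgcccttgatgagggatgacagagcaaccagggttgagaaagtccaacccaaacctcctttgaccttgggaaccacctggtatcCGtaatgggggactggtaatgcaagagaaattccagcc
TGFB1: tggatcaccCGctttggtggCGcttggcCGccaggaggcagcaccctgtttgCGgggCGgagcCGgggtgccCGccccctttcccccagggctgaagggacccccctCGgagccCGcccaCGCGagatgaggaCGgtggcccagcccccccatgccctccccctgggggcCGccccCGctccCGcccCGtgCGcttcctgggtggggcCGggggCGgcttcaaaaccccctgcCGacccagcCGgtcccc
BMP5: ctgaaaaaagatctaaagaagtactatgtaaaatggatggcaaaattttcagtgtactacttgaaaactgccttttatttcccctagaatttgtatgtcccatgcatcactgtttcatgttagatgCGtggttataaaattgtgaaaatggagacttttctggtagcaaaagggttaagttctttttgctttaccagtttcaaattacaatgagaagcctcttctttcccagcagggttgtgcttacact
BMP10: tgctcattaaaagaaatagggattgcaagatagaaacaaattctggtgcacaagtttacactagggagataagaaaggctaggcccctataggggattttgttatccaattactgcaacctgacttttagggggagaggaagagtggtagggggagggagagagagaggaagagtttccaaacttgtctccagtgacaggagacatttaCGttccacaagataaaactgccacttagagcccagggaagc
GDF11: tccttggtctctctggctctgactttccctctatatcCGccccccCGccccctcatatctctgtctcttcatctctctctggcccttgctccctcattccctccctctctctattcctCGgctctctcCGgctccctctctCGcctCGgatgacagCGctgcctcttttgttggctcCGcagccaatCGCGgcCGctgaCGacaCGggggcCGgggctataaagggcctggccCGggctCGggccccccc
BMP8A: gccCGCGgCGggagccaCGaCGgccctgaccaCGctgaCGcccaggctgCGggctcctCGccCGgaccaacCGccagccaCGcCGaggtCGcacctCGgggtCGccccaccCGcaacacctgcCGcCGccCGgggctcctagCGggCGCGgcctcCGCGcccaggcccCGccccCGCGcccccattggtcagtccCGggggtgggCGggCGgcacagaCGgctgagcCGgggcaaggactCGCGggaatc

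These stretches held 35 CpGs in BMP8A, 21 in TGFB1, 16 in GDF11, 2 in SMAD7, 1 in BMP5 and 1 in BMP10. All 250 bases lay inside a peak of both lists in TGFB1, GDF11 and BMP8A. In SMAD7 all 250 lay in a knockdown peak and 193 in a wild-type peak. The listed SMAD7 start lies 8.16 kb inside the outermost annotated 5′ end of the gene, which fell in a peak of both lists. No base of the BMP5 and BMP10 stretches was in a peak.

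A listed start was given for 33 of the 38 members, and not for BMP2, BMP3, BMP7, GDF6 and NOG. It lay inside a peak for 27 members in the knockdown list and 28 in the wild-type list, while over all protein-coding genes with a listed start the shares were 60.1% and 59.9%. TGFBR2, the type II receptor for TGF-beta, was the member whose start lay in a wild-type peak alone. BMPR1B and ACVR1, both type I receptors, had listed starts far inside the gene, and their outermost 5′ ends lay in peaks of both lists. For BMP5, BMP10 and GDF10 as well, the listed start lay in a peak of neither list. The CpG ratio used next is the number of CpGs in the 300 bases from 250 upstream to 50 downstream of the start, relative to the number the C and G content would give. It was at least 0.6 for 25 of the 33 members. Among these the start lay in a peak for 23 in the knockdown list and 24 in the wild-type list, with 78.9% and 77.1% of all protein-coding genes of that class. Of the 8 members with a lower ratio it did so for 4 in each list, GDF15, INHA, INHBA and SMAD7, with 28.4% and 30.9% of all such genes. For 12 of the 33 members the listed start was not the outermost annotated 5′ end. In the lower class these were INHBA, SMAD7, BMPR1B and ACVR1. Their CpG ratio and number describe the listed start, not the outermost end. Within the 33 members, CpG number and covered length had a Spearman rho of 0.132 in the knockdown list and 0.228 in the wild-type list. These genes share 1 library in each list, and the coefficients are descriptions without a test.

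Motifs known for SMAD binding were searched in the same 300 bases. The motif GTCTAGAC, the palindromic site of SMAD3 and SMAD4, reads the same on both strands and was found in 1 of the 33 member promoters, SMAD6, and in 0.234% of 15795 protein-coding promoters. It spans 12 to 5 bases before the listed start of SMAD6, which encodes an inhibitory SMAD. The stretch is shown here with the motif in capitals (chr15:66701986-66702235, plus strand), and was chosen after the values were seen.
SMAD6: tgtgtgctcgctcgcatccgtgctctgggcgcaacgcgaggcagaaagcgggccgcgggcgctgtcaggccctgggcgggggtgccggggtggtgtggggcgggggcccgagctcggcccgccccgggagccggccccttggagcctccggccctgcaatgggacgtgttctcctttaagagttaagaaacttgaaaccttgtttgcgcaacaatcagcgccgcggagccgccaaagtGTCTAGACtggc
All 250 of its bases lay inside a peak in both lists. The motif GGCGCC, a GC-rich element described in promoters that respond to BMP, also reads the same on both strands and does not overlap with the first. It was found in 6 of 33 member promoters (GDF7, GDF10, INHBB, BMPR2, CHRD and BAMBI) and in 24.4% of all. A match describes the letters only.

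The first comparison asked whether the genes lay near the mark at all. In both lists 36 of the 38 members had a peak within 10 kb of either end, while of all protein-coding genes 75.3% did in the knockdown list and 74.8% in the wild-type list. All 39 of the WNT genes compared further below had a peak in both lists. BMP5, a ligand of skeletal development, and BMP10, a cardiac ligand, were the 2 members without a peak in either. No member had a peak in 1 list alone, which occurred for 4.47% of protein-coding genes in the knockdown list and 3.96% in the wild-type list. Of the 67 knockdown peaks 60 touched a wild-type peak (89.6%, against 74.1% of all knockdown peaks), and of the 64 wild-type peaks 53 touched a knockdown peak (82.8%, against 71.4%). The 7 unshared knockdown peaks had a median width of 3.8 kb and the 11 unshared wild-type peaks of 3.0 kb.

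The score is the authors' own value per peak, with a ceiling of 1000, and is used only within a list. The ceiling was reached by 4 of the 67 knockdown peaks (5.97%, against 1.87% of all knockdown peaks) and by 8 of the 64 wild-type peaks (12.5%, against 3.04%). BMP4, GDF6, GDF7 and INHA had such a peak in both lists. CHRD, INHBB, SMAD6 and SMAD7 had one in the wild-type list, and their highest knockdown peaks lay within the upper 2.3%, 2%, 2.59% and 2.2% of that list. These 8 genes encode BMP and GDF ligands, inhibin and activin subunits, a BMP antagonist and both inhibitory SMADs, and none is a receptor gene. At INHA the knockdown peak with this score lay upstream of the gene, 9.31 kb and more from its start.

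The second comparison asked how far the mark extended. Covered length counts the bases of the 10 kb windows around the gene ends that lie inside peaks. It averaged 10.7 kb over the 38 members in the knockdown list and 11.8 kb in the wild-type list, while over all protein-coding genes it averaged 7.7 kb for the knockdown list and 8.79 kb for the wild-type list. Relative to the wild-type list, the knockdown sum differed by -9.37% for the members and by -12.4% for all protein-coding genes. For 22 members the knockdown list gave the lower covered length, for 13 the higher and for 3 the same. Over all 19821 protein-coding genes the knockdown list gave the lower for 9740, the higher for 5505 and the same for 4576. The median difference, knockdown minus wild type, was -1.4 kb over the members and 0 kb over all protein-coding genes, 4118 of which had no peak in either list. Among genes with a peak in both lists, the median ratio of knockdown to wild type was 0.910 for 36 members and 0.892 for 14033 protein-coding genes. The lists had 343 kb in common at the members, with 64.7 kb in the knockdown list alone and 107 kb in the wild-type list alone. Across the 38 members the covered lengths of the lists had a Spearman rho of 0.887, given as a description.

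**Figure D1:**
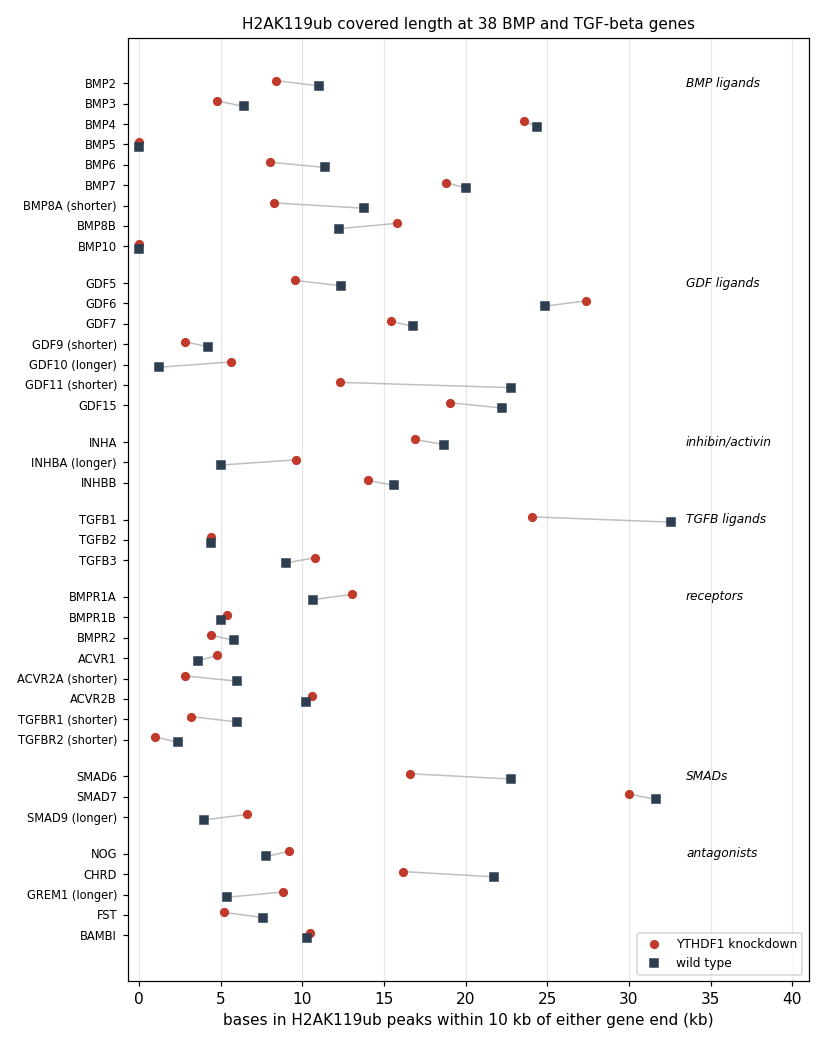
Covered length (kb) of each of the 38 genes in the YTHDF1 knockdown list (circles) and the wild-type list (squares), 1 library each, ordered by role. SMAD7 and GDF6 lie farthest right in the knockdown list and TGFB1 and SMAD7 in the wild-type list, BMP5 and BMP10 at 0 in both lists, and the widest gap between the lists is at GDF11 (12.3 kb in the knockdown list and 22.8 kb in the wild-type list).

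With 1 library per group, a rule of size took the place of a test. A gene was called shorter or longer when its covered length differed by at least 1.5-fold and at least 1 kb. In the knockdown list 6 members were shorter, GDF9, GDF11, BMP8A, ACVR2A, TGFBR1 and TGFBR2, beside 19.8% of all protein-coding genes. The 4 members called longer were GDF10, INHBA, SMAD9 and GREM1, beside 10.7% of all protein-coding genes. The members' shares were 15.8% and 10.5%, near those of all genes in both directions. Closest to the limit were GDF9 at 1.5-fold, just inside, and FST at 1.46-fold, just outside.

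**Figure D2:**
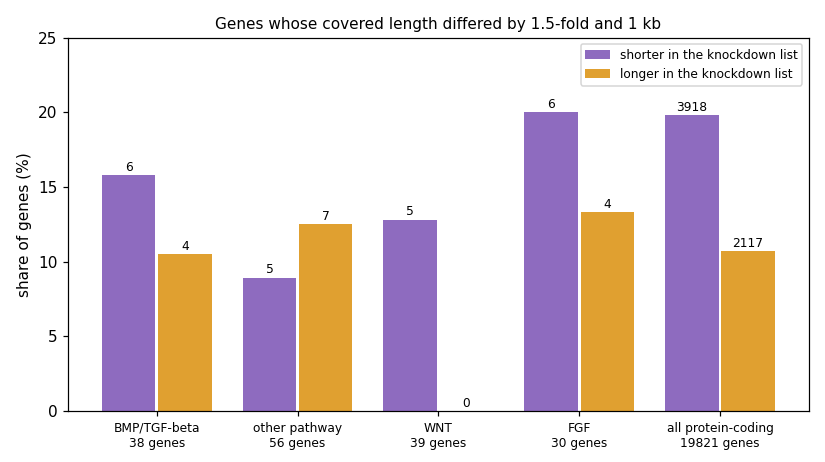
Share of genes (%) whose covered length was shorter (left bar) or longer (right bar) in the YTHDF1 knockdown list than in the wild-type list by at least 1.5-fold and 1 kb, with the number of genes above each bar. For the 38 BMP and TGF-beta genes the bars stand at 15.8% and 10.5%, and for all protein-coding genes at 19.8% and 10.7%.

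The BMP ligand genes differed widely among themselves in the mark. BMP4, the ligand commonly used to differentiate these cells, lay in a single wide peak in each list and had 23.6 kb in knockdown cells and 24.4 kb in wild-type cells. That peak reached 12.8 kb upstream and 10.8 kb downstream of the listed start in the knockdown list, and 12.6 and 11.8 kb in the wild-type list. It spanned the whole gene (chromosome 14, 53949736 to 53956891) in both. BMP7, which acts in kidney and eye development, had 18.8 kb in knockdown cells and 20 kb in wild-type cells. Its single wild-type peak of 24.4 kb met 2 knockdown peaks of 16.6 and 5.0 kb, and a further knockdown peak of 3.6 kb near the opposite end of the gene touched no wild-type peak.

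BMP2, a ligand closely related to BMP4, had 8.4 kb in knockdown cells and 11.0 kb in wild-type cells. Both lists placed a pair of peaks at its lower-coordinate end on chromosome 20, and both peaks were narrower in the knockdown list. BMP6, whose known roles include iron regulation, had 8.0 kb in knockdown cells and 11.4 kb in wild-type cells. The peak over its start was of nearly equal width, 8.0 kb for the knockdown list and 7.8 kb for the wild-type list. The rest was a separate wild-type peak of 3.6 kb upstream, whose score lay among the lowest of its list (98.5% of peaks scored as high or higher). BMP3, which opposes osteogenic BMPs, had 4.8 kb in knockdown cells, all of it inside the wild-type peak of 6.4 kb.

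BMP8A and BMP8B are closely similar paralogues on chromosome 1 with roles in germ cell development. BMP8A was called shorter and BMP8B was not called. BMP8A (39491636 to 39529869) had 8.27 kb in knockdown cells and 13.8 kb in wild-type cells, a difference of -5.53 kb. A wild-type peak of 5.4 kb over its 3′ end and a low-scored one of 1.6 kb touched no knockdown peak, and the 6.8 kb wild-type peak over the start met 2 knockdown peaks of 4.8 and 1.4 kb. Another coding gene, MACF1, lies in this window, and across the whole gene with 10 kb on both sides the difference was 0.069 kb. BMP8B had 15.8 kb in knockdown cells and 12.3 kb in wild-type cells. A knockdown peak of 5.4 kb inside that gene touched no wild-type peak, while the peak over its start was narrower, 8.6 kb for the knockdown list and 10 kb for the wild-type list. How the authors assigned reads that match both copies is not stated in the labels, so both values are uncertain.

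Among the GDF genes, GDF6 and GDF7, ligands of skeletal and of dorsal spinal cord development, lay in wide domains. GDF6 had 27.4 kb in knockdown cells and 24.9 kb in wild-type cells, with a main peak of 21.8 kb in the knockdown list and of 23.2 kb in the wild-type list that share their upper boundary. GDF7 had 15.4 kb in knockdown cells and 16.8 kb in wild-type cells. A single wild-type peak of 16.8 kb stood there beside 2 knockdown peaks of 12.2 and 3.2 kb, so the downstream part was separated by a gap. GDF15, a stress-induced hormone that acts on appetite, had 19.0 kb in knockdown cells and 22.2 kb in wild-type cells. Its window was nearly filled by 2 wild-type peaks of 19.8 and 21.0 kb, where the knockdown list had 5 peaks of 1.8 to 7.8 kb. The GDF15 difference was -3.2 kb, but 11.6 kb when peaks were kept only if a member's end was the nearest coding gene end to their midpoint, an alternative added after the data were seen and called nearest peaks below.

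GDF11 showed the largest difference of any member within the 10 kb windows. Over whole genes with 10 kb on both sides SMAD6 (-17.4 kb), TGFB1 (-11.8 kb) and BMP7 (-11.0 kb) differed by more. GDF11 patterns the trunk along its head-to-tail axis and lies on chromosome 12 (55743122 to 55757264). It had 12.3 kb in peaks in knockdown cells and 22.8 kb in wild-type cells, a difference of -10.5 kb. The peak over its start was similar, 6.4 kb for the knockdown list and 6.0 kb for the wild-type list. The difference came from a 13 kb wild-type peak running from 4.68 to 17.7 kb downstream of the start, past the end of the gene, which touched no knockdown peak. The neighbouring coding gene SARNP shares this window. With nearest peaks the GDF11 difference was 0.4 kb.

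GDF5, a ligand of joint formation, had 9.55 kb in knockdown cells and 12.3 kb in wild-type cells, with a start peak of 6.2 kb for the knockdown list and 5.0 kb for the wild-type list. GDF9, an oocyte factor, had 2.8 kb in knockdown cells, all within the 4.2 kb of wild-type cells, and 3 other coding genes (AFF4, LEAP2 and UQCRQ) lie in its window. GDF9 stood at the limit of the rule and passed it under 7 of 11 alternatives. It did not within 2 kb of the gene ends (-1.15 kb) or with nearest peaks (0 kb), nor at 2-fold or after scaling by the median ratio over all genes. GDF10, close to BMP3 in sequence, went the other way. It had 5.6 kb in knockdown cells and 1.2 kb in wild-type cells, or 4.67-fold. A 2.4 kb knockdown peak just downstream of the start (0.604 to 3.0 kb) held the whole 1.2 kb wild-type peak, and a further 3.2 kb knockdown peak near the 3′ end touched no wild-type peak. GDF10 passed the rule in the same direction under all 11 alternative settings tried, as did TGFBR2 among the shorter members.

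Of the inhibin and activin subunit genes, 1 of 3 was called, INHBA, which was longer in the knockdown list. INHBA, the βA subunit of activin (chromosome 7, 41685114 to 41705406), had 9.6 kb in knockdown cells and 5.0 kb in wild-type cells. One knockdown peak spanned both wild-type peaks of 4.0 and 1.0 kb and the gap between them. The outermost 5′ end of the gene lay in the knockdown peak and in that gap of the wild-type list. No other coding gene lies in the INHBA window. INHBB, the βB subunit, had 14 kb in knockdown cells and 15.6 kb in wild-type cells, with a start peak of 10 kb for the knockdown list and 13.4 kb for the wild-type list. INHA, the α subunit of inhibin, had 16.9 kb in knockdown cells, all inside the 18.7 kb of wild-type cells. It lay at the edge of a 117 kb wild-type domain that met 4 knockdown peaks. The knockdown peak over the INHA start was 16.2 kb wide and was parted by a gap from one of 58.6 kb. With nearest peaks, which keeps or drops whole peaks, the differences of INHA (16.2 kb) and INHBB (11.8 kb) turned and passed the rule as longer.

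The 3 TGFB genes showed 3 patterns. TGFB1, on chromosome 19 (41330323 to 41353922), had 24.1 kb in knockdown cells and 32.6 kb in wild-type cells, a difference of -8.52 kb that was 1.35-fold in size and so not called. Within 2 kb of the gene ends its difference was 0 kb. Around the listed start alone TGFB1 passed the rule as shorter (-5.0 kb). With nearest peaks, where whole peaks are kept or dropped by their midpoints, TGFB1 passed it as longer (19.8 kb). Wild-type peaks of 7.6 kb inside the gene and 2.4 kb upstream of it touched no knockdown peak, and the start peak measured 9.0 kb for the knockdown list and 11.6 kb for the wild-type list. TGFB2 had 4.4 kb in each list, in a single peak over the start that was shifted by 0.6 kb. TGFB3 had 10.8 kb in knockdown cells and 9.0 kb in wild-type cells, with the same upstream boundary and a knockdown peak that reached 1.8 kb farther downstream.

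**Figure D3:**
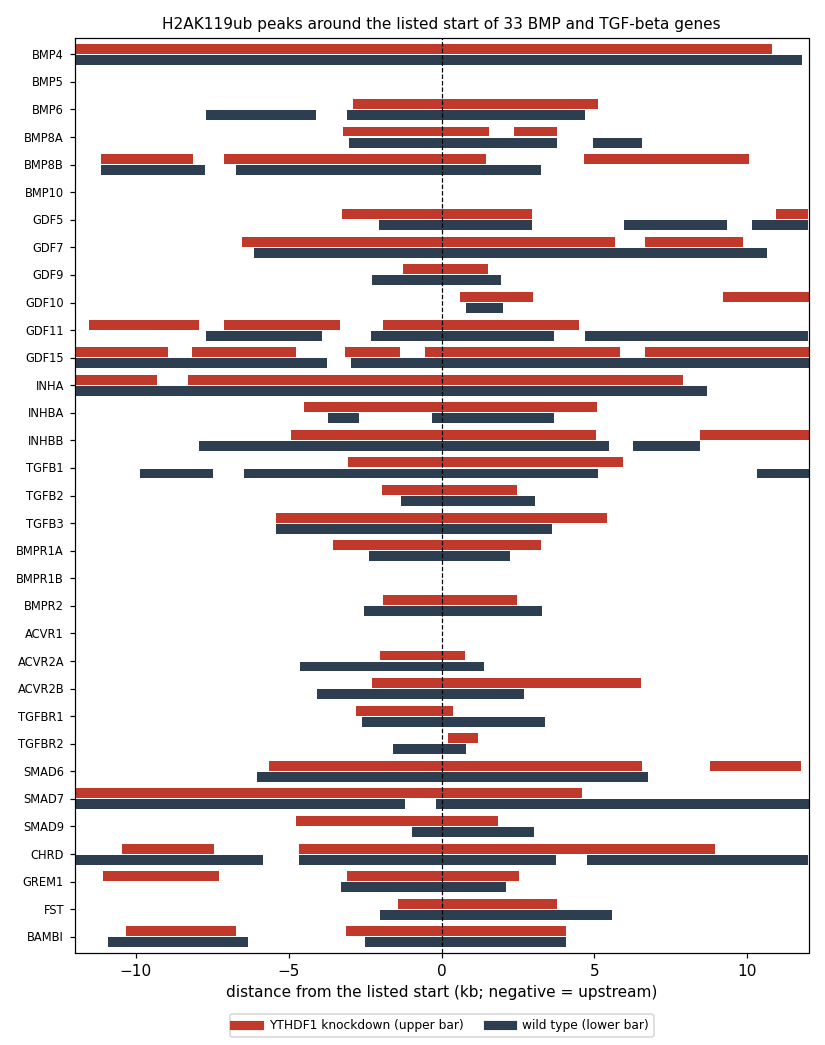
Peaks within 12 kb of the listed start of 33 genes, oriented by strand, with the YTHDF1 knockdown peaks as the upper bar and the wild-type peaks as the lower bar of each pair. The start lies in a peak of both lists for 27 genes, and the wide domains at BMP4, GDF15, INHA and SMAD7 run past the plotted range.

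The receptor genes carried short stretches of the mark, averaging 5.66 kb in knockdown cells and 6.21 kb in wild-type cells, while the 22 ligand genes averaged 11.8 kb in knockdown cells and 13.1 kb in wild-type cells. Receptor genes made up 3 of the 6 members called shorter, namely ACVR2A, TGFBR1 and TGFBR2. These were 37.5% of the 8 receptor genes, beside 19.8% of all protein-coding genes, and with so few genes the share is a description only. ACVR2A, a type II receptor for activin, had 2.8 kb in knockdown cells, all inside the single wild-type peak of 6.0 kb, which reached 4.63 kb upstream where the knockdown peak reached 2.03 kb. Another coding gene, ORC4, lies in the ACVR2A window. TGFBR1, the type I receptor for TGF-beta, had 3.2 kb in knockdown cells and 6.0 kb in wild-type cells. Here the downstream side differed, with a reach of 0.386 kb for the knockdown list and 3.39 kb for the wild-type list.

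TGFBR2 had 1.0 kb in knockdown cells, the shortest covered length among members with a peak in that list, and 2.4 kb in wild-type cells. The knockdown peak began 0.2 kb downstream of the listed start (chromosome 3, 30606601), and the wild-type peak ran from 1.6 kb upstream to 0.799 kb downstream. The peaks shared 0.6 kb. These 3 receptor genes had single peaks in each list, and their wild-type scores were not high: 77.6%, 47.7% and 40.9% of wild-type peaks scored as high as those of ACVR2A, TGFBR1 and TGFBR2 or higher. In the knockdown list these shares were 53.1%, 17.8% and 43.8%. The shorter knockdown peaks of ACVR2A and TGFBR1 thus ranked higher within their own list, and that of TGFBR2 slightly lower. Within 2 kb of the gene ends ACVR2A and TGFBR1 no longer passed the rule, and the TGFBR1 difference was 0.2 kb. In the upper 50% of peaks by score ACVR2A did not pass either, with a difference of 0 kb.

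The other 5 receptor genes were not called. BMPR1A, a type I BMP receptor, had 13 kb in knockdown cells and 10.6 kb in wild-type cells, with a start peak of 6.8 kb for the knockdown list and 4.6 kb for the wild-type list. Past the 3′ end of BMPR1A lay a further peak, 10.8 kb wide for the knockdown list and 10.2 kb for the wild-type list. Another coding gene, MMRN2, lies in the BMPR1A window. Over the whole BMPR1A gene the difference was -5.4 kb, against 2.4 kb in the 10 kb windows and 0.2 kb with nearest peaks. ACVR2B had 10.6 kb in knockdown cells and 10.2 kb in wild-type cells, and its start peak reached 6.51 kb downstream for the knockdown list and 2.71 kb for the wild-type list. BMPR2, the type II BMP receptor, had 4.4 kb in knockdown cells, all inside the 5.8 kb of wild-type cells. BMPR1B, a type I BMP receptor, had 5.4 kb in knockdown cells and 5.0 kb in wild-type cells. ACVR1, another type I receptor, had 4.8 kb in knockdown cells and 3.6 kb in wild-type cells. For both the single peak lay at the outermost 5′ end of the gene.

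The inhibitory SMAD genes were among the most widely marked members, with no other coding gene in their windows. SMAD7, which blocks activated type I receptors, had 30 kb in knockdown cells and 31.7 kb in wild-type cells. A 26.6 kb knockdown peak ran over its listed start and over a 1.0 kb gap between wild-type peaks of 19.2 and 20.4 kb. Inside the gene the wild-type peak went on to 19.0 kb downstream of the start, while the knockdown peak ended at 4.61 kb and a separate one of 5.8 kb covered the far part, from 13.2 to 19.0 kb. SMAD6 had 16.6 kb in knockdown cells and 22.8 kb in wild-type cells, a difference of -6.16 kb that was 1.37-fold and not called. Over the whole SMAD6 gene with 10 kb on both sides the difference was -17.4 kb and passed the rule, as it did within 2 kb of the gene ends and in the upper 50% of peaks by score, while within 10 kb of the listed start it was 0.636 kb. Its start peak was of nearly equal width, 12.2 kb for the knockdown list and 12.8 kb for the wild-type list, so the difference lay near the 3′ end, where knockdown peaks of 2.0 and 1.4 kb stood inside wild-type peaks of 4.2 and 3.8 kb and another wild-type peak of 3.0 kb had no partner.

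SMAD9, which carries BMP signals, was called longer. It had 6.6 kb in knockdown cells and 4.0 kb in wild-type cells, and the peaks shared 2.8 kb. The knockdown peak reached 4.76 kb upstream of the listed start and the wild-type peak 0.962 kb, whereas downstream the knockdown peak reached 1.84 kb and the wild-type peak 3.04 kb. The wild-type peak had a low score, with 88.4% of its list as high or higher. The window holds no other coding gene.

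The antagonist genes shared no common direction, and GREM1 alone among the 5 was called. CHRD, which encodes the BMP antagonist chordin, had 16.1 kb in knockdown cells and 21.7 kb in wild-type cells. A 13.6 kb knockdown peak over its start spanned the gap between wild-type peaks of 8.4 and 9.2 kb, but the wild-type mark went on farther downstream. The CHRD difference was -5.6 kb, but 5.2 kb when only the higher-scored 50% of each list was used. NOG, which encodes noggin, had 9.2 kb in knockdown cells, and this held the whole 7.8 kb of wild-type cells. GREM1, which encodes gremlin, had 8.8 kb in knockdown cells and 5.4 kb in wild-type cells. Its start peak was 5.6 kb wide for the knockdown list and 5.4 kb for the wild-type list, and the excess was a single 3.8 kb knockdown peak upstream, whose score was among the lowest of its list (98.0% as high or higher). GREM1 passed the rule under 6 of 11 alternatives, the fewest among the called members. It did not within 5 kb or 2 kb of the gene ends, in the upper 50% of peaks by score, with equal numbers of peaks or at 2-fold.

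FST, which encodes the activin antagonist follistatin, had 5.2 kb in knockdown cells, all inside the 7.6 kb of wild-type cells. BAMBI, a membrane pseudoreceptor that dampens signalling, had 10.5 kb in knockdown cells and 10.3 kb in wild-type cells. Both lists had a peak over its start that ended at the same base, 4.08 kb downstream, and a second peak farther upstream.

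The peak over the listed start was compared in the 27 members that had one in both lists. It was narrower in the knockdown list for 14, wider for 12 and equal for 1, with a median ratio of widths of 0.967. Over 8405 protein-coding genes with such a peak in both lists it was narrower for 62.9%, and the median ratio was 0.864. By ratio of widths, the largest departures on the narrower side were INHA (16.2 kb for the knockdown list and 117 kb for the wild-type list) and GDF15 (6.4 kb for the knockdown list and 21.0 kb for the wild-type list). On the wider side they were INHBA (9.6 kb for the knockdown list and 4.0 kb for the wild-type list), SMAD9 (6.6 kb for the knockdown list and 4.0 kb for the wild-type list) and CHRD (13.6 kb for the knockdown list and 8.4 kb for the wild-type list). The upstream boundary was nearer the start in the knockdown list for 13 members, farther for 12 and equal for 2. The downstream boundary was nearer for 16, farther for 9 and equal for 2, with a median difference of -0.4 kb. The boundaries were compared for the members alone, so these counts have no share over all protein-coding genes beside them.

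**Figure D4:**
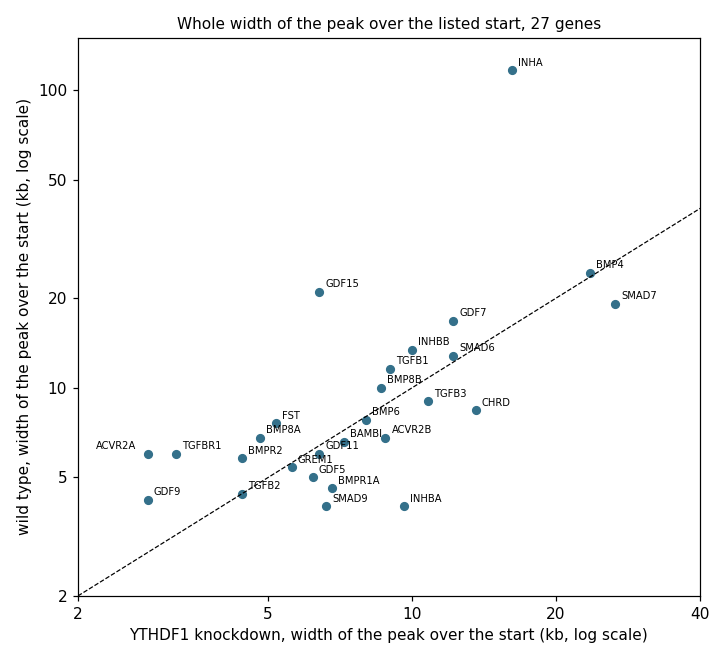
Whole width (kb, log scales) of the peak over the listed start in the YTHDF1 knockdown list (horizontal) and the wild-type list (vertical) for the 27 genes with such a peak in both, with the line of equal width dashed. Of these, 14 lie above the line (narrower in the knockdown), 12 below it and TGFB2 on it.

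The other genes of the pathway were taken from a list of 56, among them the remaining SMADs, receptors, ligands, antagonists, latency proteins and the ID target genes. Of these, 50 had a peak in the knockdown list and 49 in the wild-type list. Their summed covered length differed by -2.98% between the knockdown and the wild-type list. By the same rule 5 were shorter (8.93%) and 7 longer (12.5%), beside 19.8% and 10.7% of all protein-coding genes. SMAD1, a carrier of BMP signals, was shorter, with 1.8 kb in knockdown cells against 3.0 kb in wild-type cells. ACVRL1, the endothelial type I receptor, was shorter too, with 15 kb in knockdown cells against 25.7 kb in wild-type cells. GDF3, a NODAL-like ligand, had no base in peaks in knockdown cells against 5.6 kb in wild-type cells. SMURF2 and TGIF1, a ubiquitin ligase and a corepressor of the pathway, were the other shorter ones. SMURF2 had 1.8 kb in knockdown cells against 2.8 kb in wild-type cells, and TGIF1 had 6.62 kb in knockdown cells against 10 kb in wild-type cells. SMAD2, the carrier of activin signals, was longer, with 5.2 kb in knockdown cells against 3.2 kb in wild-type cells. The NODAL antagonist genes LEFTY2 and CER1 were longer as well. LEFTY2 had 18.6 kb in knockdown cells against 12.2 kb in wild-type cells, and CER1 had 2.6 kb in knockdown cells and none in wild-type cells. The remaining longer genes were the receptor genes ACVR1C (3.6 kb in knockdown and 1.8 kb in wild-type cells) and AMHR2 (8.47 kb in knockdown and 2.8 kb in wild-type cells), FSTL1, which encodes a follistatin-like protein (7.5 kb in knockdown and 3.8 kb in wild-type cells), and the corepressor gene SKIL (10.2 kb in knockdown and 6.0 kb in wild-type cells). SMAD3, SMAD4 and SMAD5 were not called.

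For scale, 39 WNT ligand, Frizzled and WNT antagonist genes had 5 called shorter and none longer, with a difference of -4.14% in summed covered length, and 30 FGF ligand, receptor and feedback genes had 6 shorter and 4 longer, with a difference of -13.6%. The shares called were 12.8% shorter and 0% longer for the WNT genes and 20% shorter and 13.3% longer for the FGF genes, beside 19.8% and 10.7% of all protein-coding genes. No test of these differences between families was possible with 1 library per group.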

How the data were processed

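The 2 deposited peak lists, 1 for the H2AK119ub library of YTHDF1 knockdown H1 cells and 1 for that of wild-type H1 cells, were used; the input libraries were not analysed here. Per the submitters' processing notes, hg38 was the build, and the tools were SICER 1.1, MACS2 2.1.0, Bowtie2 2.2.5, Trimmomatic 0.35, Picard and SAMtools 1.3.1. The notes do not say which of them called the peaks, or against which control. The deposited score per peak is the authors' own value, of unstated unit, running from 2 to 1000. Boundaries lie on a 200 bp grid. Peaks on chromosomes 1 to 22 and X were kept (34390 of 34393 knockdown and 32791 of 32798 wild-type peaks).

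Gene ends came from a RefSeq table of GRCh38.p14, and strand, listed starts and promoters from the RefSeq promoter table. All 38 members matched by symbol. Exons were not used here. The windows around either gene end were merged, and bases in peaks were counted with Python 3.11.15 scripts, checked on simulated peaks. Genes were called at a 1.5-fold and 1 kb difference, a rule of size with no p-value. Described in full are members that were called, members with no peak, and those most widely marked in each role. Members and lists were chosen with earlier results of these data known. Alternatives changed the window, the peaks used, the gaps joined and the call rule.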

Additional observations from a re-analysis of the deposited data

How the results depend on the processing

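Depth is unknown and each group had 1 library, so neither a replicate could be left out nor a counting interval given. No paired analysis was possible because each group had a single H2AK119ub library. The number of members with a peak, and with a listed start inside a peak, stayed within 1.5 times under every alternative run. The summed covered length of the members, knockdown over wild type, was 0.906. It was 0.914 within 5 kb, 0.893 within 2 kb, 0.940 within 10 kb of the listed start, 0.879 over whole genes with 10 kb on both sides, 0.934 in the upper 50% of peaks by score, 0.890 with equal numbers of peaks, 0.893 with peaks of at least 2 kb and 0.909 with gaps of 1 kb or less joined. Over all protein-coding genes the ratio was 0.876. In these settings it stayed below that of the members except within 2 kb, where it was 0.924. The members' ratio was above 1, at 1.203, when a peak was kept only if a member's end was nearest to its midpoint, an alternative added after seeing the data. That rule keeps or drops whole peaks, and left 33 members with a peak in the knockdown list and 31 in the wild-type list. Why the ratio rose was not tested. The median difference of -1.40 kb was -0.431 kb within 5 kb, 0 kb within 2 kb, -0.744 kb around the listed start, -0.400 kb in the upper 50% by score, -1.0 kb with gaps joined and 0.100 kb with nearest peaks. Of 6 members called shorter, 2 passed at 2-fold (ACVR2A and TGFBR2), and of 4 called longer 1 did (GDF10). At 2-fold 10.3% of all protein-coding genes were shorter and 7.01% longer. In the upper 50% by score 8 members were shorter and 8 longer, beside 18.2% and 10.5% of all protein-coding genes. With nearest peaks 4 members were shorter and 9 longer, and no share over all genes was available. Scaling by the median ratio over all genes (0.892) left 4 shorter and 4 longer, without BMP8A and GDF9. After that scaling 14.7% of all protein-coding genes were shorter and 13.3% longer. Among the 10 members called, the sign of the difference reversed for BMP8A over the whole gene (0.069 kb), for GDF11 with nearest peaks (0.400 kb) and for TGFBR1 within 2 kb (0.200 kb). Among the 28 members not called it turned under at least 1 alternative for 16, 14 passed the rule under at least 1, and GDF5, GDF15, INHBB, TGFB1 and CHRD passed it in opposite directions under different alternatives.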

Other observations

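The members were also divided by whether another protein-coding gene lay in their windows, a division made after the data were seen. At the 17 members without one, among them BMP2, INHBA, TGFBR1, SMAD6, SMAD7, SMAD9, NOG, GREM1, FST and BAMBI, covered length averaged 9.90 kb in the knockdown list and 10.1 kb in the wild-type list, and the knockdown sum differed by -2.26%. At the 21 members with one, among them GDF11, TGFB1, GDF15 and CHRD, it averaged 11.4 kb in the knockdown list and 13.2 kb in the wild-type list, and the sum differed by -13.8%. Called shorter were 1 of the 17 (TGFBR1) and 5 of the 21, and called longer were 3 of the 17 (INHBA, SMAD9 and GREM1) and 1 of the 21 (GDF10). The shares shorter were 5.88% of the 17 and 23.8% of the 21, beside 19.8% of all protein-coding genes, and the shares longer were 17.6% and 4.76%, beside 10.7%. The difference between these groups of genes was not tested.

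In 6 members the bases in knockdown peaks lay wholly inside wild-type peaks (BMP3, GDF9, INHA, BMPR2, ACVR2A and FST). In 5 the bases in wild-type peaks lay wholly inside knockdown peaks (GDF10, INHBA, TGFB3, BMPR1B and NOG). Neither count was made over all protein-coding genes, so whether they are unusual for these lists is not known.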
